A study of Rattus norvegicus with 39 samples.

Results

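The genes described here are the 100 whose levels followed Slc6a3, the dopamine transporter gene, most closely across 39 RNA-seq libraries from the rat ventral tegmental area (VTA). A gene could enter if its deposited value was at least 10 in at least 4 libraries, which 22259 of the 37403 genes in the table met. Each value was divided by its library's total, scaled to counts per 1e+06 (CPM) and taken as log2(CPM + 1), and genes were ranked by Pearson correlation (r) with Slc6a3 over all 39 libraries. Slc6a3 itself, 20 other known genes of dopamine neurons, and all nicotinic receptor (Chrn) and potassium channel (Kcn) genes were left out, and the 100 highest of the rest are the members. Because r to Slc6a3 chose the members, their r values are given as a description with no test.

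The libraries came from VTA punches of adult rats, postnatal day 60 or older, that had self-administered saline or morphine through an intravenous line. Saline controls were taken 1 day after their last session. Morphine rats were taken after 1 day without the drug, the D1 groups, or after 30 days, the D30 groups. Males gave 8 saline, 9 D1 and 7 D30 libraries, and females 6 saline, 4 D1 and 5 D30 libraries, called biological replicates in the labels, which do not say whether each is a separate animal. Every saline control dates from 1 day, so at D30 the time since the last session cannot be told apart from abstinence. The labels name no strain, genotype or dose, and the study compared the sexes and the abstinence times. Female saline replicate 6 and female D1 replicates 3 and 4 have library names that start with Blue, where the others are numbers. No batch is read from that name.

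Midbrain dopamine neurons make dopamine from tyrosine with the enzymes Th and Ddc, load it into vesicles with the transporter Slc18a2, and take it back up with Slc6a3. In the VTA they lie among GABA neurons, glutamate neurons and glia, and they are set apart by a group of transcription factors that includes Pitx3, En1, Nr4a2 and Lmx1b. Slc6a3 is among the most selective markers of these cells in the midbrain. In a bulk punch, fewer dopamine neurons and less RNA per dopamine neuron cannot be told apart.

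Depth was 15.2 M to 63.1 M estimated counts a library, where M is 1e+06 (median 24.5 M). Slc6a3 ran from 15.4 to 1629 CPM, with a median of 854 CPM, and lay under 0.25 of that median in 7 libraries. These are male saline replicates 7 and 8 (184 and 161 CPM), male D1 replicate 8 (185), male D30 replicates 6 (30.8) and 7 (15.4), and 2 female libraries, replicate 5 of saline (38.0) and replicate 2 of D30 (139). The next lowest library, male D1 replicate 9, had 314 CPM. The mean log2(CPM + 1) of the 100 members ran from 3.17 in female saline replicate 5 to 5.35 in male saline replicate 3. Every one of the 100 members lay below its own median in each of the 7 libraries low in Slc6a3. Members were chosen by r to Slc6a3, so their low levels in these libraries, here and in the ranges below, follow from the rule. Female D1 is the group with no such library, and its 4 Slc6a3 values lay between 810 and 855 CPM.

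**Figure D1:**
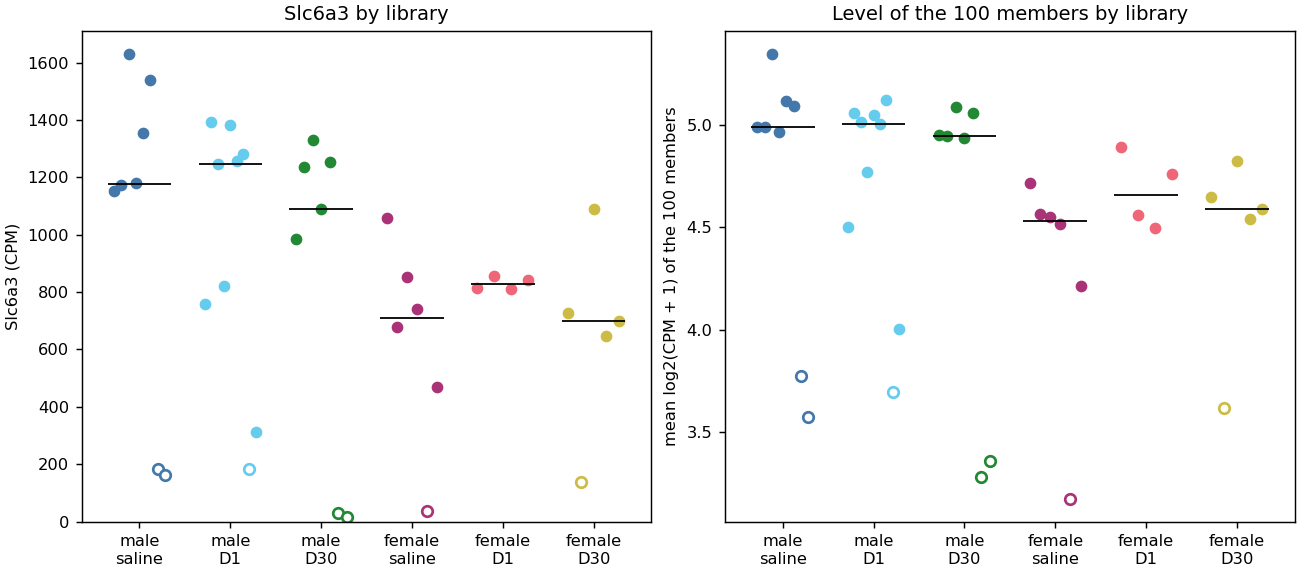
Slc6a3 (left, CPM) and the mean log2(CPM + 1) of the 100 members (right) in each of the 39 libraries by group. Points are libraries, bars are group medians, and open points are the 7 libraries under 0.25 of the Slc6a3 median, which were also low in the members.

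Slc10a4, an orphan relative of the bile acid carriers that sits on synaptic vesicles of monoamine and cholinergic neurons, ranked highest (r = 0.98). It ran from 64.1 to 420 CPM in male saline (median 344), 45.7 to 399 in male D1 (median 345), 9.63 to 476 in male D30 (median 311) and 22.6 to 242 in female saline (median 198). The 4 female D1 libraries had 320, 254, 197 and 258 CPM, and the 5 female D30 libraries 224, 75.2, 281, 161 and 210 CPM. All 7 libraries low in Slc6a3 lay below the other 32 for this gene, and the groups overlapped. Zar1, known as an oocyte factor that acts at the start of embryonic development, came next (r = 0.97), with 1.31 to 10.7 CPM in the 7 low libraries and 10.3 to 60.8 CPM in the other 32. Zar1 is the gene next to Slc10a4 on the chromosome.

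The other members of the first 20 in rank are of mixed kinds. Cadps2 (r = 0.96), which primes dense-core vesicles for release, Gcnt2 (0.95), a glycosyltransferase that branches sugar chains, and Cplx2 (0.94), a complexin that binds the SNARE fusion complex, followed in rank. Cntnap4, a neurexin relative, and Gpr161, a receptor of the primary cilium that restrains Hedgehog signalling, had r = 0.936 and 0.935. Cnpy1, Chrm5, Prima1, Ndnf, Tmem207, Bnc2 and Atp2a3 lay between 0.927 and 0.932. Of these, Chrm5 is the M5 muscarinic acetylcholine receptor, Prima1 anchors acetylcholinesterase in neuronal membranes, Ndnf is a secreted neurotrophic protein, Bnc2 a zinc-finger protein and Atp2a3 the SERCA3 calcium pump. Erc2, a scaffold of the presynaptic active zone, had r = 0.92, as did Ntn1, the guidance cue netrin-1, and Gucy2c, the guanylyl cyclase receptor for guanylin peptides. Fam167a (0.91) and a provisional long non-coding gene were also among the 20.

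At the other end of the list r declined slowly across the threshold. The members ranked 96 to 100 were Qrfprl (0.826), Prr15 (0.825), Nppc, the precursor of C-type natriuretic peptide (0.824), Prkca, a protein kinase C (0.823), and Fhip1a (0.823). The next 5 genes, just outside the list, were a provisional gene (0.822), the synaptotagmin Syt17 (0.822), Ccdc110 (0.821), the fatty acid elongase Elovl3 (0.820) and Bean1 (0.820). In all, 96 members are protein-coding and 4, all with provisional symbols, are long non-coding.

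Several members sit beside a known gene of dopamine neurons or beside each other. In the RefSeq order of protein-coding genes, 11 of the 96 protein-coding members (11.5%) had another member or a left-out gene as an immediate neighbour, against 206 of the 16858 protein-coding genes tested (1.22%). Among the pairs were Slc10a4 with Zar1, Clptm1l with Slc6a3, Cnpy1 with En2, Ankk1 with Drd2, Fignl1 with Ddc, Bend5 with Spata6, and B3galt1 with Stk39. At 5 of these loci, those of Slc6a3, Drd2, Slc10a4, Ddc and En2, the neighbour on the other side had a lower r. These loci were taken because a member lay on one side, and the other neighbour was not a member. Its lower r therefore follows from the choice. Other left-out genes, Th, Gch1, Nr4a2 and Ret among them, had no member on either side. Clptm1l, on one side of Slc6a3, had r = 0.91, and Lpcat1, on the other side, had r = -0.19. Ankk1 beside Drd2 had r = 0.88 and Tmprss5 on the other side 0.55, and Zar1 beside Slc10a4 had 0.97 and Slain2 0.09. Fignl1 beside Ddc had r = 0.88 and Grb10 on the other side 0.49, and Cnpy1 beside En2 had 0.93 and Insig1 0.57. Elovl3, just outside the list, lies beside Pitx3, and its level never passed 2.67 CPM. Slc10a4 and Zar1, Clptm1l and Slc6a3, and Fignl1 and Ddc lie on the same strand, and Cnpy1 and En2, and Ankk1 and Drd2, on opposite strands. Whether reads that run past a gene's end, or reads of the opposite strand, enter the neighbour's value was not tested.

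Promoter sequences are shown for Slc6a3 and the highest member Slc10a4, each with its neighbour, and for 2 further members whose windows hold motifs known for dopamine neuron factors. Each is the stretch of 250 bases before the start of the gene in RefSeq, assembly GRCr8, 5′ to 3′ on the gene's own strand. Capitals mark matches to any of 8 short motifs on either strand. The windows are chr1:31578963-31579212 (minus strand) for Slc6a3, chr1:31512078-31512327 (minus) for Clptm1l, chr14:35557885-35558134 (minus) for Slc10a4, chr14:35551404-35551653 (minus) for Zar1, chr6:101230034-101230283 (minus) for Gpx2 and chr2:142093368-142093617 (plus) for Mab21l1.
Slc6a3: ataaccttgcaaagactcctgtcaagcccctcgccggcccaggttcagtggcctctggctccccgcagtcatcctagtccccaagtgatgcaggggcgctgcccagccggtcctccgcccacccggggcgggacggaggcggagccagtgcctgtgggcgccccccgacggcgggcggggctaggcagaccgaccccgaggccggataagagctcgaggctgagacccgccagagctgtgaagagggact
Clptm1l: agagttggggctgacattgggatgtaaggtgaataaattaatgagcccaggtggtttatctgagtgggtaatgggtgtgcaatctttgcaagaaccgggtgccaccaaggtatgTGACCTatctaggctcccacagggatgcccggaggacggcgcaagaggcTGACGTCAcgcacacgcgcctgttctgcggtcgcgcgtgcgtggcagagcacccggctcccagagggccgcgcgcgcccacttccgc
Slc10a4: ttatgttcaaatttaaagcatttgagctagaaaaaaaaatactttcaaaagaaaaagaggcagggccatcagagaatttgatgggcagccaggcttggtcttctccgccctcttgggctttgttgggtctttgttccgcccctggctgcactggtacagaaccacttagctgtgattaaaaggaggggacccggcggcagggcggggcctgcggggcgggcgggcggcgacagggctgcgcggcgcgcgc
Zar1: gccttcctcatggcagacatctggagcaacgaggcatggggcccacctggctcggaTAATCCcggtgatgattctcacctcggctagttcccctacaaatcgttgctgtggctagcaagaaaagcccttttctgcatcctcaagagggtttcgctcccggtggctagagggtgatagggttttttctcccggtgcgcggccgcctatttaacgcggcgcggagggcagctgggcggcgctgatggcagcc
Gpx2: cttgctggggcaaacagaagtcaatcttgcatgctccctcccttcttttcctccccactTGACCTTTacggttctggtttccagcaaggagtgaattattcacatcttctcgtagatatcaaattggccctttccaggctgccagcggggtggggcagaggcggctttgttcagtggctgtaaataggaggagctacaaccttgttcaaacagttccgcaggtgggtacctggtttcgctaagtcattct
Mab21l1: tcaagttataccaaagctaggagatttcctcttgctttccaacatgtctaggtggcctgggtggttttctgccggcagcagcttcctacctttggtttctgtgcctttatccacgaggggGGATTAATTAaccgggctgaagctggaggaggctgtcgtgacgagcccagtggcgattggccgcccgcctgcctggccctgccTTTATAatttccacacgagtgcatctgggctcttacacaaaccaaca

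The windows of Slc6a3 and Slc10a4 hold none of the 8 motifs. The capitals in Clptm1l are an AGGTCA site on the reverse strand and a TGACGTCA cAMP response element. Zar1 has TAATCC, the core bound by Pitx and Otx homeodomains, Gpx2 has AAAGGTCA, the Nr4a response element, on the reverse strand, and Mab21l1 has TAATCC on the reverse strand overlapping a TAATTA homeobox core, and TATAAA on the reverse strand.

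RefSeq windows were matched for 80 of the 100 members, and each motif share is given beside that of 17246 promoters of the same length. The counts are small, and the differences were not tested. AAAGGTCA was in 1 of the 80 (1.25%, against 0.916% of all), and the shorter AGGTCA, which every AAAGGTCA contains, in 6 (7.5% against 11.9%). TAATCC was in 3 (3.75% against 5.48%), among them Zar1, Mab21l1 and Nppc, and TAATTA in 5 (6.25% against 2.98%), in Bnc2, Mab21l1, Fgf1, B3galt1 and Samd9. The forkhead motif TGTTTAC was in 3 (3.75% against 2.38%), CACGTG in 1 (1.25% against 7.10%), TGACGTCA in 2 (2.5% against 2.27%) and TATAAA in 5 (6.25% against 8.81%). The median GC content was 61.8% in the members and 56.8% in all promoters. A match here is only a match of letters.

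Known genes of dopamine neurons that the rule left out by name gave a reference for the members. Of the 21 named, 12 including Slc6a3 itself had an r at or above the lowest member. Th had r = 0.98, En1 and Pitx3 0.97, Slc18a2 0.97, Ddc and the dopamine autoreceptor gene Drd2 0.97, Dlk1 0.96, Gch1, which makes the cofactor of Th, 0.96, Ret, the GDNF receptor kinase, 0.95, and the neuropeptide gene Cck and En2 0.91. The other 9 lay below the lowest member. Aldh1a1, a retinaldehyde dehydrogenase of a subset of dopamine neurons, had 0.82, Foxa1 0.78, Foxa2 0.75, Lmx1b 0.74, Nr4a2 0.68, Calb1 0.61, Lmx1a 0.40, Otx2 0.37 and Sox6 0.30. Among the channel and nicotinic genes, 7 reached the lowest member's r. The nicotinic subunits Chrnb3 (0.99), Chrna6 (0.98), Chrna5 (0.96) and Chrna4 (0.90) did so, and the potassium channel genes Kcnd3 (0.91), Kcnj6 (0.88) and Kcnn3 (0.84).

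Lists of related genes contributed unevenly. Of the 100 members, 22 were in one of 26 lists of pathways and cell types. Of 35 measured genes known as enriched in midbrain dopamine neurons, 6 were members (Slc10a4, Ndnf, Gucy2c, Fgf20, Tmem255a and Ntsr1), and the median r of the list was 0.50, against -0.12 for all 22258 genes ranked. Of 19 dopamine neuron transcription factors, 3 were members, Bnc2 and Satb1 among them, and of 34 exocytosis genes also 3 (Cadps2, Cplx2 and Syt1), although the median r of that list was -0.10. Of 24 oxidative phosphorylation genes and 22 neurofilament and axon cytoskeleton genes, 0 were members (median r -0.10 and -0.08). Markers of other cells were not among the members: median r was 0.38 for 15 oligodendrocyte genes, 0.41 for 11 microglial genes, 0.47 for 5 genes of raphe serotonin neurons, 0.06 for 13 GABA neuron genes, -0.38 for 9 glutamate neuron genes, -0.48 for 17 hypothalamic genes and -0.37 for 8 choroid plexus genes. Without the 7 libraries low in Slc6a3 these medians were, in the same order, 0.22, -0.13, 0.36, -0.12, -0.33, -0.23 and -0.43. The microglial and GABA neuron medians thus changed sign, and that of the genes enriched in dopamine neurons fell to 0.23. Of 9 general neuronal markers, Syt1 was a member and the list's median r over all 39 libraries was -0.21.

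**Figure D2:**
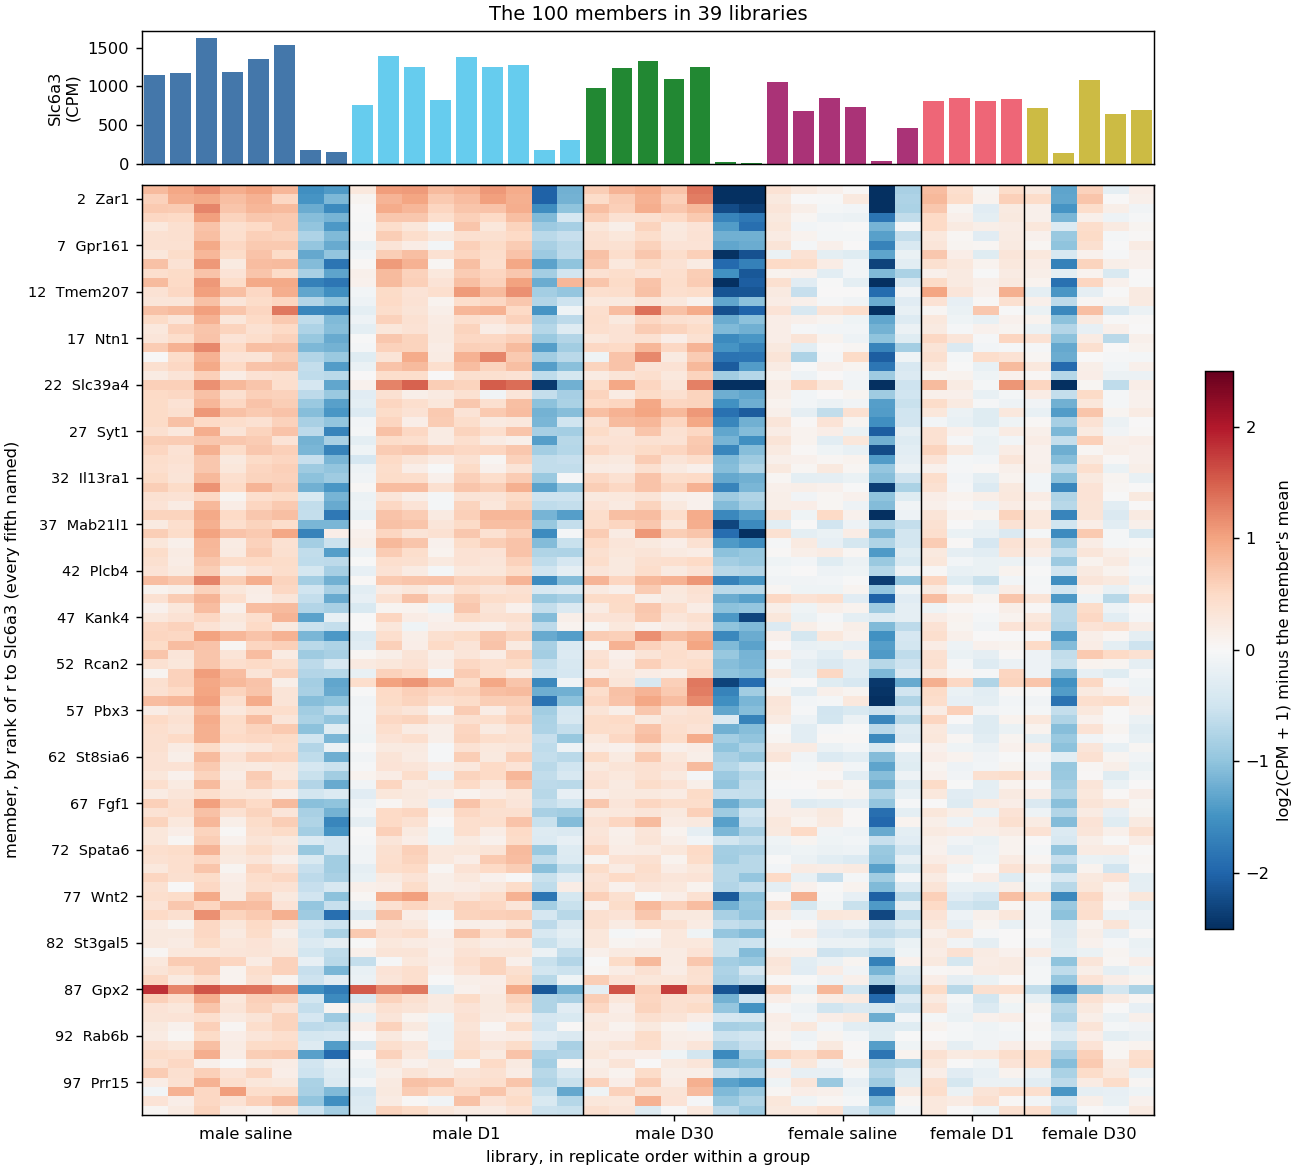
Slc6a3 in CPM (bars, top) and the 100 members in rank order (rows) in the 39 libraries (columns, in replicate order within a group), coloured by log2(CPM + 1) minus the member's mean. The 7 libraries low in Slc6a3 form blue columns in 5 of the 6 groups, and the colour is deepest in the upper rows.

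Transcriptional regulators among the members include homeodomain proteins, an ETS factor and zinc-finger proteins. Pbx3 is a homeodomain cofactor with r = 0.87. Bnc2 was 0.208 to 0.881 CPM in the 7 low libraries and at least 1.09 CPM in the other 32. The ETS factor Etv5 was 15.5 to 26.1 CPM in the low libraries and 21.8 to 66.9 CPM in the others, so these sets overlapped. Satb1, an organiser of chromatin loops, was 11.3 to 20.7 CPM against 21.3 to 41.6 CPM. Pou3f1, Lmo4, Mab21l1, Lbh and Tfcp2l1 had r between 0.855 and 0.906.

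Genes of vesicle release and the presynapse ran over several-fold ranges. Cadps2 was 12.9 to 33.1 CPM in the 7 low libraries and 39.03 to 186 CPM in the other 32. Cplx2 was 131 to 380 CPM against 271 to 792 CPM, with female D30 replicate 2 inside the upper range. Syt1, the calcium sensor of fast release, was 97.1 to 257 CPM against 224 to 762 CPM. These sets touched for Cplx2 and Syt1 and were apart for Cadps2. Rab6b, a GTPase of Golgi transport, moved least of all members, from 255 to 513 CPM over the 39 libraries. Apba1, an adaptor of presynaptic complexes, had r = 0.90. Nrgn, a calmodulin-binding protein of dendrites and spines on the postsynaptic side, had r = 0.84.

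Receptors and signalling enzymes form a further share of the members. Chrm5 was 1.19 to 4.13 CPM in the 7 low libraries and 4.41 to 22.2 CPM in the other 32, with no overlap. Ntsr1, the high-affinity neurotensin receptor, was 3.23 to 32.7 CPM against 18.6 to 97.7 CPM. Gucy2c was 0.202 to 0.754 CPM against 1.08 to 7.73 CPM, again with no overlap. The receptor genes Gpr158, Gpr26, Adgrg2 and F2r, a thrombin receptor, were members, as were Rgs8, which speeds the turn-off of G proteins, Plcb4, a phospholipase C, Prkca and Pde2a, a phosphodiesterase stimulated by cyclic GMP. Gabra4, a GABA-A receptor subunit, was 6.04 to 18.8 CPM against 14.6 to 49.8 CPM, and Trpc6, a cation channel, 2.03 to 6.90 CPM against 7.73 to 25.6 CPM.

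Secreted and guidance genes were also present. Of the growth factor genes, Fgf20 was 0.198 to 1.42 CPM in the low libraries and 1.41 to 9.75 CPM in the others, Fgf1 28.7 to 45.7 CPM against 50.2 to 143 CPM, and Ntf3, which encodes neurotrophin-3, 0.26 to 2.73 CPM against 1.81 to 15.7 CPM. Fgf13, a relative that stays inside the cell and binds sodium channels, was 29.3 to 86.7 CPM against 73.5 to 369 CPM. Gfra1, the GDNF co-receptor that works with Ret, was 13.4 to 36.9 CPM against 25.4 to 98.9 CPM. Of these 5 genes, Fgf1 alone was fully apart. Ntn1 was 18.3 to 29.7 CPM against 34.3 to 94.6 CPM, and Robo2, a receptor for Slit guidance cues, 12.6 to 18.4 CPM against 18.6 to 35.6 CPM. Grem1, which blocks bone morphogenetic proteins, Wnt2, Tnfsf15 and Nppc were the other ligands or antagonists, and Lamb3, Col25a1 and Tll1 are genes of the extracellular matrix.

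Transporters and enzymes completed the set. Slc39a4, a zinc importer, had the widest range of the 99 members detected in every library, 61.6-fold from 0.964 to 59.4 CPM. Gpx2, a glutathione peroxidase, ran from 0.853 to 38.4 CPM. Slc16a3 exports lactate, Slc25a24 carries ATP into mitochondria, Gbe1 branches glycogen, Hpgd breaks down prostaglandins and Dhrs3 reduces retinaldehyde. Besides Gcnt2, the glycosyltransferases St8sia6, St3gal5 and B3galt1 were members, the first of them with r = 0.86.

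The members spanned a narrower range than Slc6a3 itself. The slope of a member's log2(CPM + 1) on that of Slc6a3 had a median of 0.31 and ran from 0.14 (Rab6b) to 0.83 (Slc10a4), and it reached 0.5 in 11 members. The pseudocount of 1 lowers this slope in members with a few CPM. Bnc2 spanned 18.8-fold with a slope of 0.31, and Gucy2c 38.2-fold with 0.46. The 99 members above 0 in every library spanned a median of 6.30-fold, at least 5-fold in 58 (58.6%) and at least 10-fold in 35 (35.4%). The 18828 tested genes above 0 in every library spanned a median of 2.58-fold, with 25.5% at least 5-fold and 12.3% at least 10-fold. A high r to a gene of wide range favours genes of wide range, so this difference follows in part from the rule. All 7 low libraries lay below the other 32 for 40 members, and 6 of the 7 did so for 31. The share of all genes with such a separation was not counted. Slc6a3 picked both these libraries and the members, so the separation follows from the choice and is a description only. The highest value of 58 members was in male saline replicate 3, the library with the most Slc6a3, and the lowest value of 41 was in female saline replicate 5.

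**Figure D3:**
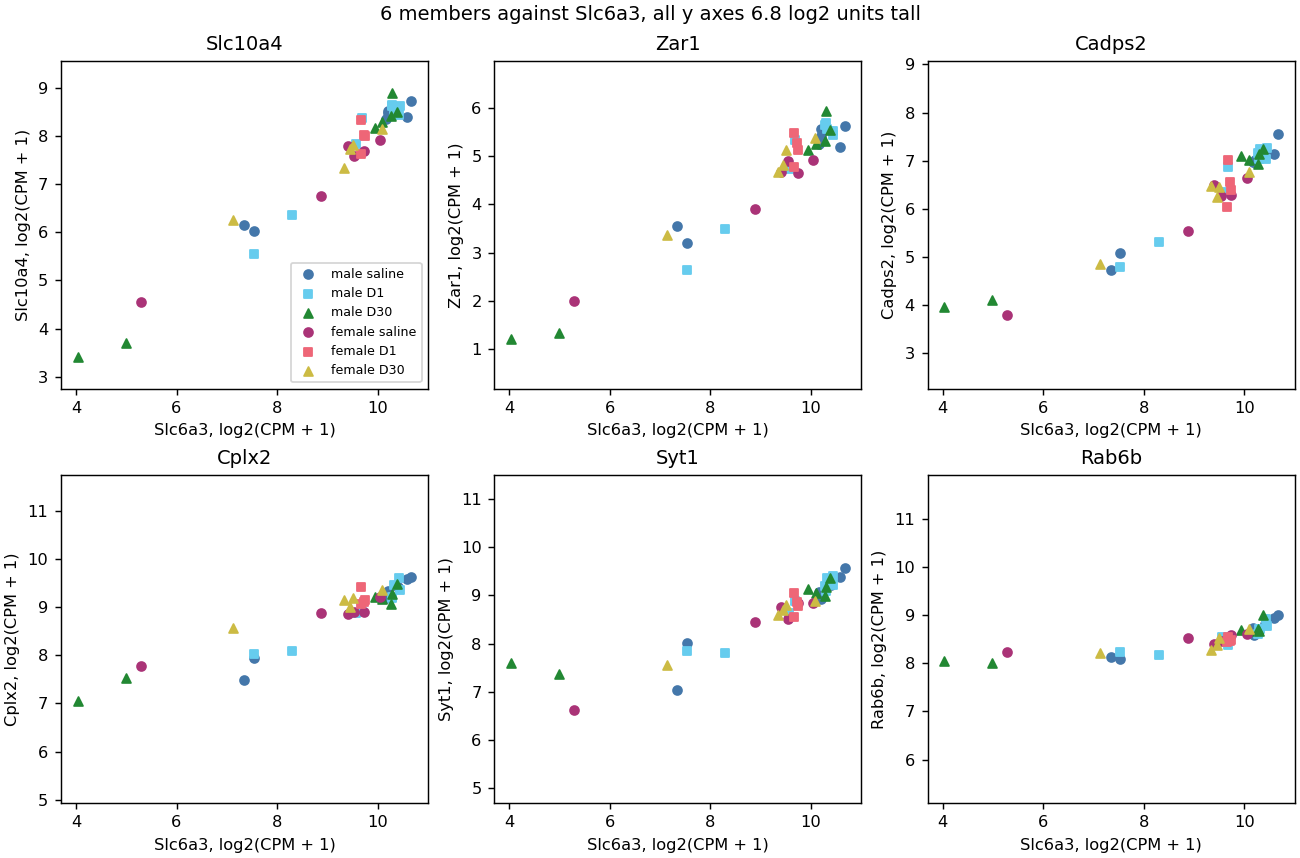
Plots of 6 members against Slc6a3, each in log2(CPM + 1) with y axes of equal height, points being libraries coloured by group. Slc10a4 and Zar1 run down steeply into the libraries low in Slc6a3, Cplx2 and Syt1 less so, and Rab6b is nearly flat.

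Part of the ranking rested on the 7 low libraries. Over the other 32 libraries the members' r had a median of 0.81 and ran from 0.32 to 0.95, and it was at least 0.8 in 52 members and at least 0.5 in 98. Clptm1l (0.95), Syt1 (0.93), Gpr161, Slc10a4 and Pde2a (0.93, 0.92 and 0.92) were highest there. A provisional long non-coding gene was lowest, and Mboat1, a lysophospholipid acyltransferase, had 0.37, Fhip1a 0.53, Ntf3 0.53 and Slc25a24 0.54. If the ranking is repeated on the 32 libraries, 65 of the 100 members are kept. On deviations from the 6 group means the members' r ran from 0.82 to 0.98, and 87 of the 100 remained. In males alone (24 libraries) the median r was 0.90, and in females alone (15 libraries) 0.89. All of these r values come from the libraries that chose the members, so they describe the choice and are no separate check. The members kept in the ranking of each sex numbered 76 in males and 54 in females, with 37 kept in both.

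**Figure D4:**
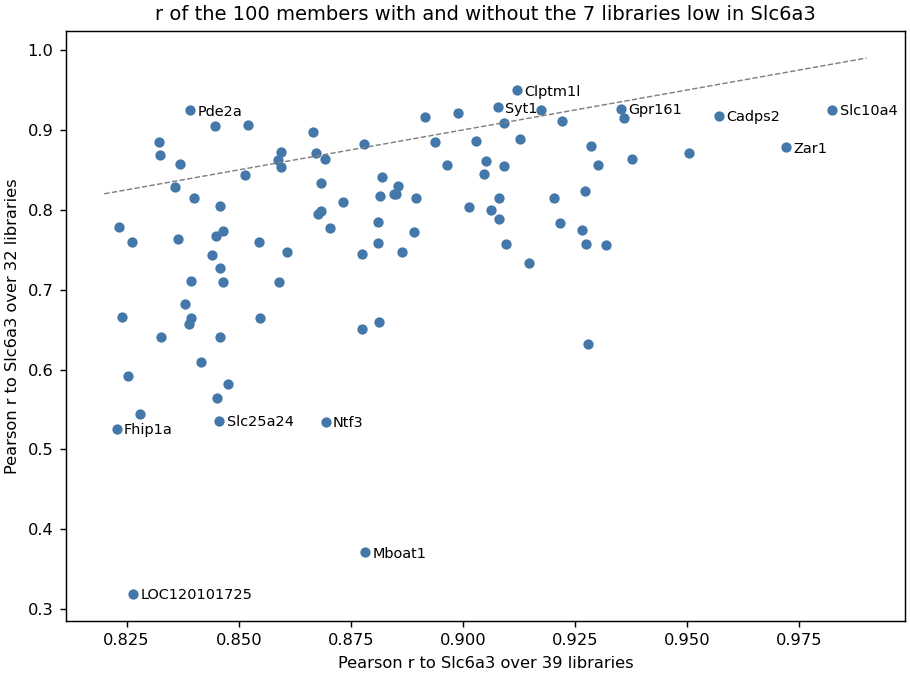
Each point is a member, with r to Slc6a3 over all 39 libraries (x) and over the 32 libraries not low in Slc6a3 (y), and the dashed line marks equal values. Most points lie below the line, Clptm1l and Pde2a above it, and Mboat1 far below it at 0.37.

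The members also followed each other. All 4950 pairs had a positive r (median 0.87), and the first principal component of the 100 held 86.5% of their variance. Every member was chosen with an r to Slc6a3 of at least 0.82 over these same libraries. Positive pairs and a large first component therefore follow from the rule and are no separate result. After the straight-line relation to Slc6a3 was taken out of each gene, the median pair had r = 0.43 and the first component held 45.2%. The pairs closest to each other were then Cadps2 and Fgf13 (0.92), Cadps2 and Tmem255a (0.92), Erc2 and Nyap2 (0.91), and the neighbours Slc10a4 and Zar1 (0.90). The lowest pair was Kank4 and Ntsr1 (-0.57), and Kank4 had r = -0.02 with the component, the lowest of the 100 members. Male D30 replicate 7 stood farthest out on the component, at 2.16 against -1.36 to 1.13 in the other 38 libraries. That library had the least Slc6a3 (15.4 CPM), at the end of the fitted line. It also had the highest summed level of 17 hypothalamic marker genes, 3992 CPM against a median of 68.8 CPM. Of the next highest sums, female saline replicates 3 (3428 CPM) and 4 (2449 CPM) were at -0.66 and -0.51 on the component. Male D30 replicate 6 (1969 CPM) was at 0.72 and male saline replicate 7 (1906 CPM) at -0.71. The part of that tissue in the member levels of male D30 replicate 7 was not tested. These correlations describe 39 libraries that share dissection and depth, and genes in 1 library are not independent.

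No member passed the test in any of the 11 comparisons between groups (edgeR quasi-likelihood test, Benjamini-Hochberg adjusted p under 0.05 over all 22259 genes). DESeq2 and limma called 0 members as well, but the shares of all genes that these fits called are not given here. The group labels did not enter the rule, but a difference in Slc6a3 between groups carries over to genes chosen for following it. The members' counts and medians below are therefore given beside the value of Slc6a3 and beside those of all genes.

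In males, morphine abstinence went with small median differences. At D1 against saline 0 of 100 members passed, where 0.00899% of all genes did, and 0 had an unadjusted p under 0.05 (4.85% of all genes). The median log2 fold change of the members was -0.08 (all genes -0.01) and that of Slc6a3 -0.12 (SE 0.60), with 21 members positive. Etv5 had the smallest p, at -0.32 on the log2 scale (SE 0.26, adjusted p = 1). At D30 against saline 0 passed (0% of all genes) and 0 had an unadjusted p under 0.05 (3.31% of all genes). Their median was -0.13 (all genes 0.00) beside -0.25 (SE 0.64) for Slc6a3, and Gpr26, an orphan receptor, was at -0.48 (SE 0.36, adjusted p = 1). At D30 against D1 0 passed (0.0629% of all genes), the median was -0.05 (all genes 0.01) beside -0.13 (SE 0.62) for Slc6a3, and 1 member, Tmem132b, had an unadjusted p under 0.05 (8.49% of all genes). Tmem132b ran from 19.1 to 41.8 CPM at D1 (median 34.8) and from 11.6 to 31.3 CPM at D30 (median 24.7), and these ranges overlapped. Its log2 fold change was -0.49 (SE 0.21, edgeR adjusted p = 0.519).

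Female saline had the lowest mean level of the members, 4.29 ± 0.57 in log2(CPM + 1), and female D1 had 4.68 ± 0.18. In females Slc6a3 averaged 640 ± 353 CPM at saline (SD, n = 6), 831 ± 21.8 at D1 (n = 4) and 660 ± 339 at D30 (n = 5). At D1 against saline the log2 fold change was positive in 99 of 100 members, with a median of 0.35 (all genes 0.00) beside 0.41 (SE 0.79) for Slc6a3. With edgeR 0 members passed (0% of all genes), and 0 had an unadjusted p under 0.05 (6.79% of all genes). DESeq2 had 0 under that unadjusted p as well, and its share of all genes is not given here. Bspry had the smallest p (0.46, SE 0.24, adjusted p = 0.762), with 37.1 to 64.2 CPM in saline (median 47.6) and 66.2, 76.0, 66.7 and 62.4 CPM at D1. The 4 D1 values lay near or above the highest saline value. At D30 against saline the median was 0.14 (all genes -0.01) beside 0.05 (SE 0.74) for Slc6a3, with 83 members positive, 0 passing (0% of all genes) and 0 with an unadjusted p under 0.05 (6.11% of all genes). At D30 against D1 it was -0.20 (all genes -0.02) beside -0.36 (SE 0.82) for Slc6a3, with 7 positive, 0 passing (0% of all genes) and 0 with an unadjusted p under 0.05 (5.42% of all genes).

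Between the sexes, most log2 fold changes of the members were negative in females against males, and the median was farthest from 0 in saline. Slc6a3 averaged 1047 ± 567 CPM in male saline (n = 8) and 640 ± 353 in female saline, or -0.82 on the log2 scale (SE 0.68, adjusted p = 0.501). In CPM the female median lay below the male median for 100 of 100 members and for 34.99% of all genes, and the groups did not overlap for 0 members and for 0.921% of all genes. All 100 log2 fold changes were negative (median -0.59, from -1.37 to -0.21), where the median of all genes was 0.01 and 51.7% of them were positive. With edgeR 0 members passed (0.624% of all genes), and 24 had an unadjusted p under 0.05, as did 21.4% of all genes. DESeq2 called 0 members, with 36 under that unadjusted p, where 21.4% of all genes with a DESeq2 p were. Stk39, a kinase that regulates chloride cotransporters, had the smallest p. It ran from 89.1 to 219 CPM in male saline (median 171) and from 93.1 to 133 CPM in female saline (median 102), which is -0.73 on the log2 scale (SE 0.27, adjusted p = 0.126). Rcan2, a calcineurin regulator, was at -0.70 (SE 0.26, adjusted p = 0.127) and St3gal5, which makes the ganglioside GM3, at -0.44 (SE 0.17, adjusted p = 0.134).

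The count between the saline groups depended on the libraries low in Slc6a3. Without the 7 of them, 82 members passed, all lower in female saline, against 5.36% of all genes lower. The libraries left out were picked by Slc6a3, and in the rest Slc6a3 was apart between the sexes, at 1151 to 1629 CPM in male saline and 470 to 1059 CPM in female saline. With Slc6a3 as a covariate as well, 4 of the 100 passed, also lower (1.13% of all genes lower): Ndnf at -0.81 (SE 0.15, adjusted p = 0.00804), Il13ra1, an interleukin-13 receptor chain, at -0.54 (SE 0.13, adjusted p = 0.0242), Stk39 at -0.54 (SE 0.14, adjusted p = 0.0397) and Mboat1 at -0.62 (SE 0.17, adjusted p = 0.0479). With the covariate in all 39 libraries 0 passed (0.669% of all genes). The rule chose members for following Slc6a3, so the covariate narrows their spread more than that of most genes. Tissue markers differed between these groups too: the summed hypothalamic markers had a median of 141 CPM in female saline (range 69.6 to 3428) against 65.0 CPM in male saline (55.9 to 1906), and choroid plexus markers 163 CPM (40.4 to 2959) against 22.4 CPM (12.02 to 1733). None of the 17 hypothalamic or 8 choroid plexus genes was at 0 throughout either group. The part of these tissues in the result was not tested.

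At D1 the median lay nearer to 0. The members' median log2 fold change, female against male, was -0.17 (all genes 0.00) beside -0.29 (SE 0.75) for Slc6a3, and 0 members passed (0.0539% of all genes) or had an unadjusted p under 0.05 (9.2% of all genes). The difference between the sexes in the D1 response, tested as an interaction, was positive in all 100 members (median 0.45, all genes 0.01) beside 0.53 (SE 0.99) for Slc6a3. In it 0 passed (0% of all genes) and 0 had an unadjusted p under 0.05 (3.67% of all genes). At D30 the interaction had a median of 0.27 (all genes -0.01) beside 0.30 (SE 0.98) for Slc6a3, with 0 passing (0% of all genes) and 0 under that unadjusted p (6.36% of all genes).

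At D30 the members' median was -0.34 (all genes -0.01) beside -0.52 (SE 0.73) for Slc6a3, with 93 members negative. With edgeR 0 passed (1.19% of all genes), and 2 had an unadjusted p under 0.05, Gpx2 and Lrrc3b, as did 16.8% of all genes. Gpx2 ran from 0.853 to 35.8 CPM in male D30 (median 15.6) and was 6.30, 2.29, 4.63, 7.09 and 5.44 CPM in female D30, which is -1.76 on the log2 scale (SE 0.76, adjusted p = 0.227). Lrrc3b, a leucine-rich repeat membrane protein, ran from 25.1 to 97.0 CPM in male D30 (median 70.5) and was 42.5, 26.2, 47.8, 50.2 and 44.2 CPM in female D30, which is -0.72 on the log2 scale (SE 0.34, adjusted p = 0.272). For both genes the female values lay within the male range, and the lowest male values came from the 2 male libraries low in Slc6a3. On mean log2 values (limma) the direction of Slc6a3 was the opposite, 0.53 higher in female D30, and 32 of the members were positive.

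With Slc6a3 as a covariate, 17 members were lower in female D30 than in male D30, against 3.27% of all genes lower. Members were chosen for a close straight-line fit to Slc6a3, so this covariate narrows their spread more than that of most genes. A share above that of all genes therefore follows in part from the rule. Male D30 replicates 6 and 7 (30.8 and 15.4 CPM of Slc6a3) also lay below every female D30 library (139 CPM or more). Fewer members passed with the square of Slc6a3 added, as given below. Lrrc3b (-0.76, SE 0.14, adjusted p = 0.00174), Satb1 (-0.43, SE 0.09, adjusted p = 0.0067), Bend5 (-0.59, SE 0.13, adjusted p = 0.00697) and Clptm1l (-0.43, SE 0.11, adjusted p = 0.0144) had the smallest p. Among the others were Lbh, Atp2a3, Grem1, Fgf13, Tmem255a, Gpx2, Syt1, Adgrg2, Slc16a3, Pde2a and Percc1. Clptm1l ran from 88.2 to 237 CPM in male D30 (median 194) and was 165, 97.9, 182, 146 and 145 CPM in female D30, within the male range. Without the 7 libraries and with the covariate, 17 of 17 stayed lower in females, but none passed (adjusted p 0.0575 to 0.518), and Gpr26 alone passed (1.58% of all genes), higher in females (0.60, SE 0.13, adjusted p = 0.0237). Without the 7 libraries and with no covariate, 19 members passed, all lower (4.27% of all genes lower), 11 of them among the 17.

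**Figure D5:**
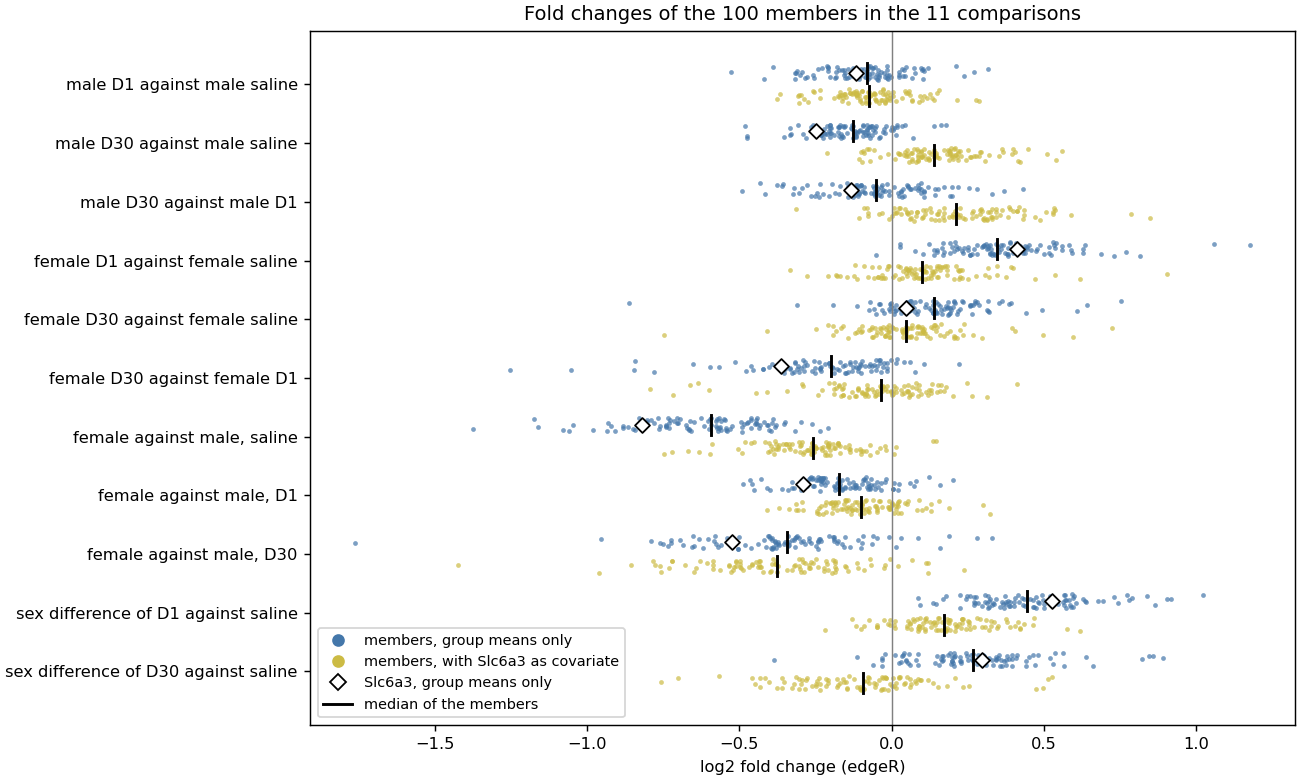
Log2 fold changes of the 100 members in the 11 comparisons, from edgeR with group means alone (blue) and with Slc6a3 as a covariate (yellow), with black bars at the members' medians and diamonds at Slc6a3 without the covariate. In the blue points all members lie below 0 in female against male saline (median -0.59), and the covariate moves that median to -0.26.

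The wider dopamine lists were tested in the same edgeR fit. Of 20 genes of dopamine synthesis, storage, transport and breakdown, Slc6a3 among them, 0 passed in each of the 11 comparisons, as did 0 of 19 dopamine neuron transcription factors and 0 of 35 genes known as enriched in these neurons. Of 8 nicotinic subunits and 10 potassium channels of dopamine neurons, 0 passed either. At an unadjusted p under 0.05, at most 3 genes of the first list, 2 of the enriched genes, 2 of the potassium channels and 0 of the other 2 lists were counted in any comparison. The share of all genes under that p ran from 3.31% to 21.4% over the 11 comparisons. DESeq2 called 1 gene of the first list, in female against male D30, and 0 of the other 4 lists. Of the 17 hypothalamic genes, 3 passed as higher in female than in male saline (0.624% of all genes passed). In addition, 1 was lower in female than in male D30 (1.19%), and 1 was higher in male D30 than in male D1 (0.0629%).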

How the data were processed

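RNA from 39 VTA punches was sequenced from libraries made with a directional kit, per the labels' protocols. The submitters' processing notes name kallisto, Trim Galore and DESeq2, without versions or roles. The authors deposited 1 table named normalized, but its values are estimated counts on which depth was kept, with column totals whole within 0.00022. The annotation, like the build and any use of strand in counting, was not given in the sources used here. Genes that overlap or share sequence, and antisense partners, therefore have uncertain values. Estimated counts may be scaled for transcript length, which leaves a gene's fold changes in place but makes low values look more precise than they are.

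Members were found on the deposited values as CPM with a pseudocount of 1, a filter of at least 10 in at least 4 libraries and Pearson r to Slc6a3. For tests, values were rounded to whole numbers and fitted with edgeR 4.0.16 (TMM, means of 6 groups over all 39 libraries, quasi-likelihood F test, two-sided), with Benjamini-Hochberg adjustment over 22259 genes. A fold change is on the log2 scale with its SE, and group levels are mean ± SD. The p-values speak only to the spread among these libraries, which may be technical. Alternatives used DESeq2 1.42.0, limma 3.58.1 on log2(CPM + 1), other filters and scalings, Slc6a3 as a covariate and a replicate block. Others left out single libraries, the low libraries or those named Blue. Scripts were tested on simulated counts. No 2 libraries of a group agreed within sampling noise (smallest chi-square per gene 17.8).

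The members, the gene lists and the tests were chosen with earlier results of these data known. Genes named are the 20 highest by r, the 5 on either side of the threshold, the genes left out, list members, the 5 highest and 5 lowest by r without the low libraries, members that passed (up to 5 a direction) or, where none did, the 3 smallest p, and covariate calls; other genes were named after their values were seen. RefSeq GRCr8 tables gave names for 100 of 100 members, gene order and promoters. Some members are not reported here by name.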

Additional observations from a re-analysis of the deposited data

Results flagged for a closer look

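Within-group outliers were sought for 7 values, the mean level of the members, Slc6a3 and the 5 members highest in rank, in 42 groups of values, and 9 extremes lay farther from the rest of their group than Dixon's 95% limit. The 7 values follow Slc6a3 closely, so the 9 flags are not separate findings. The rate of 1 in 20 for a single test does not apply to their count. All 9 were low values of 2 female libraries, on the log2(CPM + 1) scale. In female saline replicate 5 the members' mean was 3.17, Slc6a3 was 5.29, Slc10a4 4.56, Zar1 2.00 and Cplx2 7.77. In female D30 replicate 2 the members' mean was 3.62, Slc6a3 was 7.13, Cadps2 4.86 and Gcnt2 2.47. Both libraries are among the 7 low in Slc6a3. The male groups hold 1 or 2 such libraries each, and none of their values passed the limit. The test measures the gap to the nearest value, so 2 low libraries of a group can hide each other. It therefore cannot show that the male groups lack outliers.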

How the results depend on the processing

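The count of members called was 0 in all 11 comparisons. It stayed at 0 in 125 of 132 alternative counts, each being an alternative fit in a single comparison. The fit without the libraries named Blue, all female, is among those that stayed at 0. With a single library left out it stayed at 0 in 170 of 170 such counts (range 0 to 0). The other 7 counts concern females against males. In saline, 82 members passed without the 7 libraries low in Slc6a3, 26 with the replicate block (1905 of 22259 genes called), and 4 with Slc6a3 as a covariate and without the 7 libraries. At D30, 17 passed with Slc6a3 as a covariate, 19 without the 7 libraries, 1 with both, and 2 with Slc6a3 and its square as covariates (500 of 22259 genes called). The fits with both changes and with the square were chosen after seeing the data. The cause of these differences was not tested. Same-numbered libraries of different groups had a median correlation of 0.02 over 80 pairs, against 0.01 over 545 differently numbered pairs, and 3 of 39 libraries correlated best with their own number, so the numbers do not pair the samples and the replicate block is a fit on a shared number only. It changed no count of members called apart from the 26. Gpr26 turned from a negative to a positive log2 fold change with Slc6a3 as a covariate, to 0.052 in male D30 against saline and 0.075 in male D30 against D1. Without TMM the median of all genes in female against male saline moved to 0.12, and that of the members to -0.48.

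Of the 100 members, 65 were kept without the 7 low libraries and 54 in females alone, and between 80 and 100 without a single library, the fewest without male D30 replicate 7. The other ranking alternatives kept 70 (Spearman) to 100, and 33 members were kept under every one of 8 alternatives. Depth limits members with a few CPM, such as Ankk1 and Bnc2, and the groups hold only 4 to 9 libraries.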

Other observations

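Some left-out regulators followed Slc6a3 in one sex more than in the other, as a description with no test. Lmx1a, a homeodomain factor needed to form dopamine neurons, had r = 0.05 to Slc6a3 over 24 male libraries and 0.88 over 15 female libraries, and its highest level, 27.1 CPM, was in male D30 replicate 7, the library with the least Slc6a3. Nr4a2 had 0.63 in males and 0.89 in females, and Calb1, a calcium-binding protein of part of the VTA dopamine neurons, 0.51 and 0.93. Aldh1a1 ran the other way, with 0.88 in males and 0.58 in females, as did En2, with 0.98 and 0.65. The lowest level of Lmx1a, Nr4a2 and Calb1 was in female saline replicate 5, a library low in Slc6a3. Over the 32 libraries not low in Slc6a3, both sexes together, r was 0.20 for Lmx1a, 0.45 for Nr4a2 and 0.72 for Calb1. It was 0.66 for Aldh1a1 and 0.70 for En2. How far single libraries make these differences between the sexes was not tested.

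Summed markers of serotonin neurons, which lie in the raphe behind the VTA, ran from 8.99 to 144 CPM in male saline (median 31.2), 23.1 to 262 in male D1 (median 106.3), 8.92 to 197 in male D30 (median 147), 8.44 to 27.4 in female saline (median 19.5), 8.90 to 275 in female D1 (median 176) and 8.88 to 87.1 in female D30 (median 20.3). These ranges overlap, and with edgeR 0 of the 5 genes passed in any of the 11 comparisons. In female D1 against saline 3 of the 5 had an unadjusted p under 0.05 with edgeR (6.79% of all genes), and DESeq2 called 3. In female against male saline these counts were 4 (21.4% of all genes) and 1. The shares of all genes that DESeq2 called are not given here. DESeq2 called none of the 5 in the other 9 comparisons, where edgeR counted 0 to 2 under that unadjusted p. In the 7 libraries low in Slc6a3 this sum lay between 8.92 and 32.5 CPM, against 8.44 to 275 CPM in the other 32.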
